A study of Mus musculus with 10 samples.

Results

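Interferon-stimulated genes are the genes that a cell switches on after an interferon binds its surface. A list of 44 of them was followed in salivary gland cells of NOD/ShiLtJ mice, a strain prone to autoimmune diabetes in which lymphocytes also invade the salivary glands. The list was taken as given and was matched by symbol to the deposited array values, with the brightest probe set that names a single gene standing for each. Of the 44 listed genes 40 had such a probe set, and 39 passed the filter on low values, out of 18826 genes tested in all. Mx1, a dynamin-like antiviral GTPase, did not pass the filter, with values of 1.85 to 2.87. Gbp2, Dtx3l and Oas1a lay only on probe sets that also name a second gene, and Ifi44 was not matched, so these 4 have no value of their own here.

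All mice were female. The arrays fell into 3 groups: 4 from mice with type 1 diabetes at 21 weeks of age, 3 from mice without diabetes at 21 weeks and 3 from mice without diabetes at 6 weeks. All were of the NOD/ShiLtJ strain, so no group of another strain stands beside them. The gland was cut up in dispase II and collagenase IV and filtered, so whole dissociated tissue and no sorted cell type was measured. Which of the salivary glands was used is not in the labels, and they give no treatment and no diabetes duration.

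Type I interferons signal through the receptor chains Ifnar1 and Ifnar2 and the kinases Jak1 and Tyk2 to a complex that contains Stat2 and Irf9 and binds the interferon-stimulated response element (ISRE). Interferon gamma signals through Ifngr1, Ifngr2, Jak1 and Jak2 to the gamma-activated site (GAS) in promoters, and it induces Irf1 and the large GTPases most strongly. Interferon-stimulated genes are known to be high in the salivary glands and blood of many people with Sjögren's disease, in which lymphocytes collect in the gland.

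Values are log2 intensities per probe set, so a difference of 1 is a doubling. A change is a difference of group means on that scale, given ± its standard error from limma, and adjusted p-values use the Benjamini-Hochberg correction across the 18826 genes. A gene is said to have risen or fallen where its adjusted p was under 0.05. Mice are numbered within each group, and nothing more is said of how they were housed or bred, so the p-values measure the spread between these arrays. A pair of arrays stood apart. Nondiabetic 21-week array 3 had a mean over all genes of 4.35 against 4.51 to 4.53 for the other arrays, and diabetic array 4 had the highest T cell and B cell markers. Epithelial markers differed between the groups. The mean of 10 duct epithelium genes was 5.98 to 6.68 in the diabetic arrays and 7.26 to 7.50 at 21 weeks without diabetes. At 6 weeks it was 6.82 to 7.14. Of the 10, 4 fell with diabetes, against 0.34% of all genes. The mean of 9 acinar genes was 10.39 to 10.80, 7.77 to 9.61 and 9.49 to 10.03 in the same order. Of the 9, 2 rose with diabetes, against 1.1% of all genes. Neither list moved in 1 direction only. With diabetes at 21 weeks, 3 duct genes were higher and 7 lower, and 6 acinar genes were higher and 3 lower. Over all genes 56% were higher. The groups did not overlap for 8 of the 10 duct genes (3 higher, 5 lower) and 5 of the 9 acinar genes (3 higher, 2 lower). Over all genes 14.1% did not overlap. Muc19 and Dcpp1 spread widely among the nondiabetic 21-week arrays (2.03, 10.86 and 4.70, and 3.11, 10.79 and 6.74). Pip was lower in every diabetic array (11.99 to 12.10) than in those (12.22 to 12.33). The part of duct and acinar cells in the members' values was not tested.

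The ISRE, through which type I interferon is known to induce such genes, was sought in the promoters of the list. A promoter window of 300 bases (250 before and 50 after the start in the RefSeq table, build GRCm38.p6) was at hand for 33 of the 44 genes. The ISRE core, GAAA followed by any 2 bases and GAAA again, searched on both strands, occurred in 17 of the 33 (51.5%), against 3.99% of 27025 genes and 3.44% of 32851 promoter windows of the same length. A longer consensus, the core followed by CT, occurred in 8 of the 33 (24.2%) against 0.303% of genes. The GAS core TTCNNNGAA occurred in 7 (21.2%) against 9.55% of genes. A match describes the letters and does not show a bound site.

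A set of 6 windows shows the range found, each the 150 bases before the start, read along the gene's own strand, with every ISRE core in capitals. They are Ifi205 (chr1:174031756-174031905, minus strand), the member that rose in diabetes, and Slfn2 (chr11:83064962-83065111, plus strand), a member that rose from the 6-week to the diabetic arrays and has no core in this window. Isg15 (chr4:156200819-156200968, minus strand) and Ifit1 (chr19:34640739-34640888, plus strand) are standard markers of type I interferon, the latter with its cores on the opposite strand. Socs1 (chr16:10785537-10785686, minus strand) is a feedback inhibitor, and Irgm1 (chr11:48871421-48871570, minus strand) is a GTPase of the interferon gamma response. Sequences are from RefSeq.
Ifi205: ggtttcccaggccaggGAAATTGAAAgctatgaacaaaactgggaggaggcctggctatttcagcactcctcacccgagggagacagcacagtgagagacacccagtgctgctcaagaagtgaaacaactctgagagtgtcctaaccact
Slfn2: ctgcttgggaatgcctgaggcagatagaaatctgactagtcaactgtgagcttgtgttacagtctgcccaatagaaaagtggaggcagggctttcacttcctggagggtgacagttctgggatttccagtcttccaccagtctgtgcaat
Isg15: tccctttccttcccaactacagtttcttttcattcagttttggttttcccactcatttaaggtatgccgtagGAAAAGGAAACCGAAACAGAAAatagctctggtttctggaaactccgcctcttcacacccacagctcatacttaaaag
Ifit1: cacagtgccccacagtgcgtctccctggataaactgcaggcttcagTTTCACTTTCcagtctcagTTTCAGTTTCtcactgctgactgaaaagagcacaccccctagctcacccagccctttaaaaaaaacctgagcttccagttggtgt
Socs1: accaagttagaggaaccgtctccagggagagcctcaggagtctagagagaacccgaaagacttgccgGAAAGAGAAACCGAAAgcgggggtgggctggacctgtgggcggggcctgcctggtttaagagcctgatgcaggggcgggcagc
Irgm1: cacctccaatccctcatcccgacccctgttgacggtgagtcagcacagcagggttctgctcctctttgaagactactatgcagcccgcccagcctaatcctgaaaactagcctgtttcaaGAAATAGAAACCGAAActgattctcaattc
Isg15 holds 3 overlapping cores, Ifit1 2 separate cores, and Socs1 and Irgm1 2 overlapping cores each.

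Members with and without a core in the window were set side by side. From 6 to 21 weeks without diabetes, the 15 tested members with a core had a median change of 0.35 and the 14 with a window but no core had 0.32. Between diabetic and nondiabetic arrays at 21 weeks the medians were -0.05 and -0.15, and from the 6-week to the diabetic arrays 0.38 and 0.25. These medians are descriptions and the difference between the sets was not tested.

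Across the 39 tested members the level at 21 weeks was mostly higher than at 6 weeks, and 1 gene rose between nondiabetic and diabetic arrays of the same age. Between diabetic and nondiabetic arrays at 21 weeks, Ifi205 rose and 0 fell. Over all genes 1.1% rose and 0.34% fell in this comparison, 1.44% in either direction. An unadjusted p under 0.05 in the limma fit was found for 8 of the 39 members, against 2978 of the 18826 genes. The members' median change was -0.11 against 0.03 over all genes, with 17 higher and 22 lower. That median changed sign with single arrays left out: it was 0.012 without diabetic array 4 and 0.026 without nondiabetic 21-week array 1, each with 22 members higher. The groups did not overlap for 5 members (12.8%), against 14.1% of all genes. Ifi205, Ifi204 and Zbp1 were higher in every diabetic array, and Usp18 and Irf9 were lower in every diabetic array. Without diabetic array 4 a second member rose, Ifi204 (1.39, adjusted p = 0.0482).

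Between nondiabetic mice at 21 and 6 weeks, 0 of the 39 passed the test with limma. Its unadjusted p was under 0.05 for 12 of the 39, against 1406 of the 18826 genes. Over all genes 0.00531% rose and 0.0212% fell, 0.0266% in either direction, so few genes of any kind passed. The members' median change was 0.35 against -0.06 over all genes, and 0.19 without nondiabetic 21-week array 1. Of the members 34 (87.2%) were higher at 21 weeks, against 38.2% of all genes. The groups did not overlap for 13 members (33.3%), all higher at 21 weeks, against 13.8% of all genes in either direction. Without nondiabetic 21-week array 3, Slfn2 rose (1.83, adjusted p = 0.00352).

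Between diabetic mice at 21 weeks and nondiabetic mice at 6 weeks, Slfn2 and Zbp1 rose and 0 fell, against 0.903% and 0.542% of all genes, 1.44% in either direction. The members' median change was 0.35 against -0.02 over all genes, and 0.23 without diabetic array 2. Of the members 34 (87.2%) were higher, against 46% of all genes. The limma fit gave an unadjusted p under 0.05 for 17 of the 39, against 2811 of the 18826 genes. The groups did not overlap for 9 members (23.1%), all higher in the diabetic arrays, against 16.7% of all genes. The count that rose depended on single arrays. Leaving out nondiabetic 21-week array 3 made it 5, and leaving out diabetic array 4 made it 4. It was 1 when diabetic array 2 or 3 or 6-week array 1 or 2 was left out, and 0 when 6-week array 3 was. Over all genes 170 rose, and 244 did without nondiabetic 21-week array 3. That number was 180 without diabetic array 4 and 31 without 6-week array 3. The 3 comparisons share groups of arrays, so their values are given side by side and are not independent of each other. In these bulk samples, fewer cells of a type and less RNA per cell cannot be told apart.

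**Figure D1:**
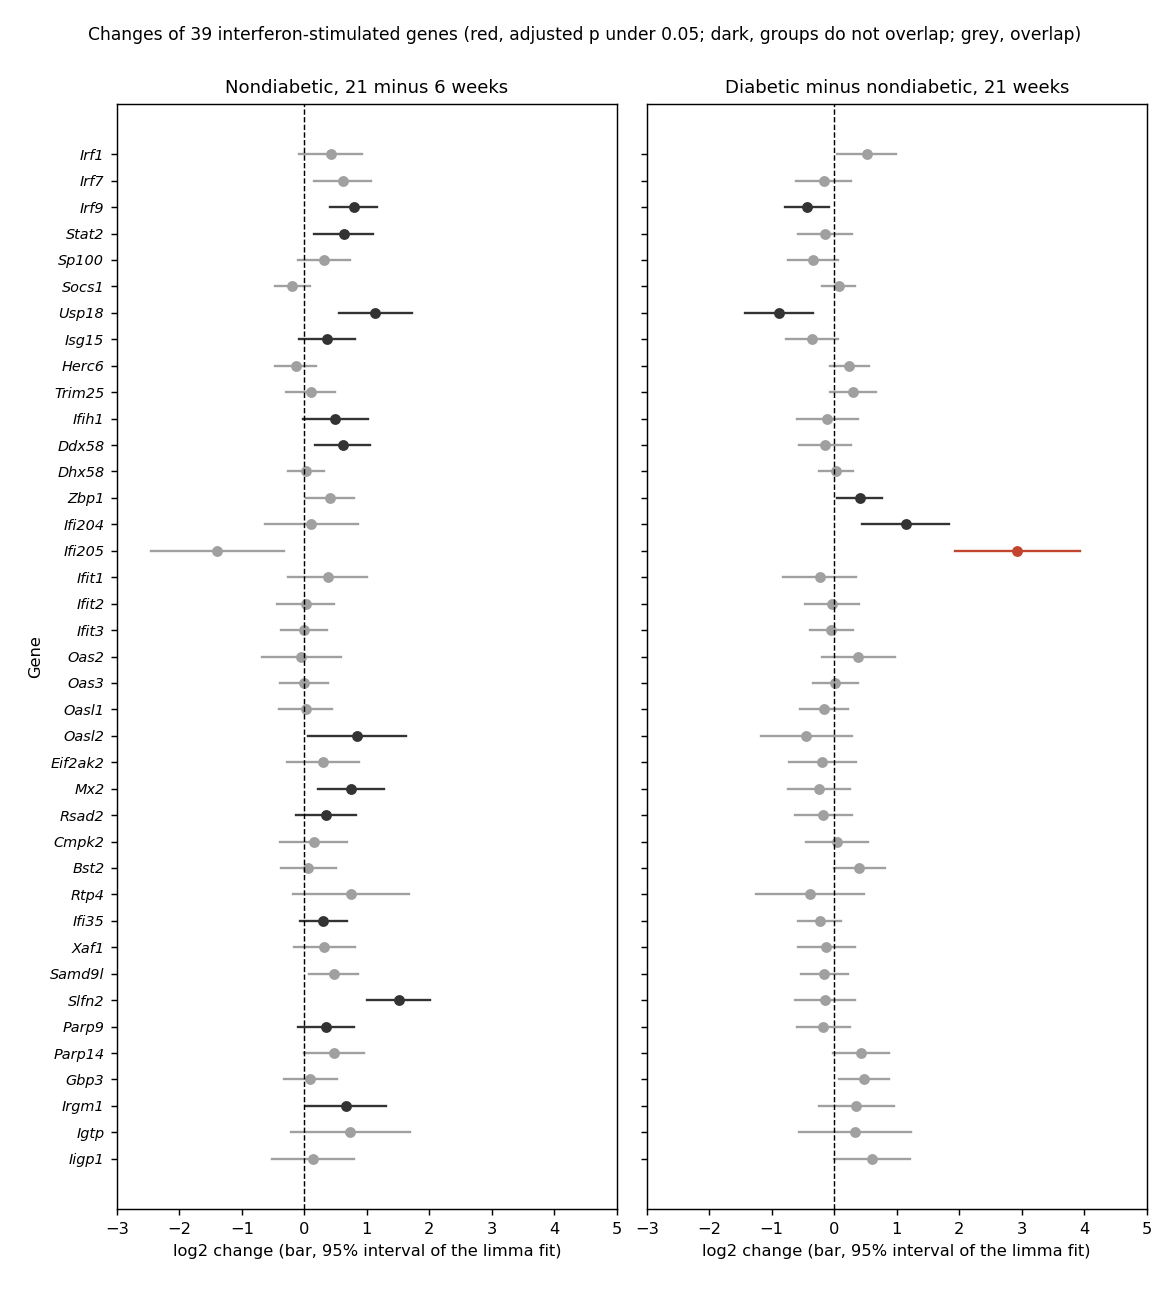
Log2 change of each of the 39 tested genes (points) with the 95% interval of the limma fit (bars), from 6 to 21 weeks without diabetes on the left and from nondiabetic to diabetic at 21 weeks on the right. On the left 34 points lie above 0, and on the right the red Ifi205 at 2.93 is the gene past the test while 22 points lie below 0.

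Within a group, the same array was often the highest or the lowest for many members. Diabetic array 2 was the highest of the 4 diabetic arrays for 29 of the 39 members (74.4%), against 24.5% of all genes, and diabetic array 4 was the lowest for 26 (66.7%) against 31.6%. Among the nondiabetic 21-week arrays, array 1 was the highest for 31 members (79.5%) against 42.3% of all genes, and array 3 was the lowest for 33 (84.6%) against 57.5%. The mean over the 39 members was 4.90, 5.18, 4.90 and 4.53 in the diabetic arrays, 5.07, 4.83 and 4.48 at 21 weeks without diabetes, and 4.48, 4.42 and 4.48 in the 6-week arrays. The 6-week arrays lay within 0.1 of each other and below every 21-week array except nondiabetic array 3, which had about their level. Members of a list like this share their regulators and their arrays, so the 39 are not separate tests of a difference between mice.

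**Figure D2:**
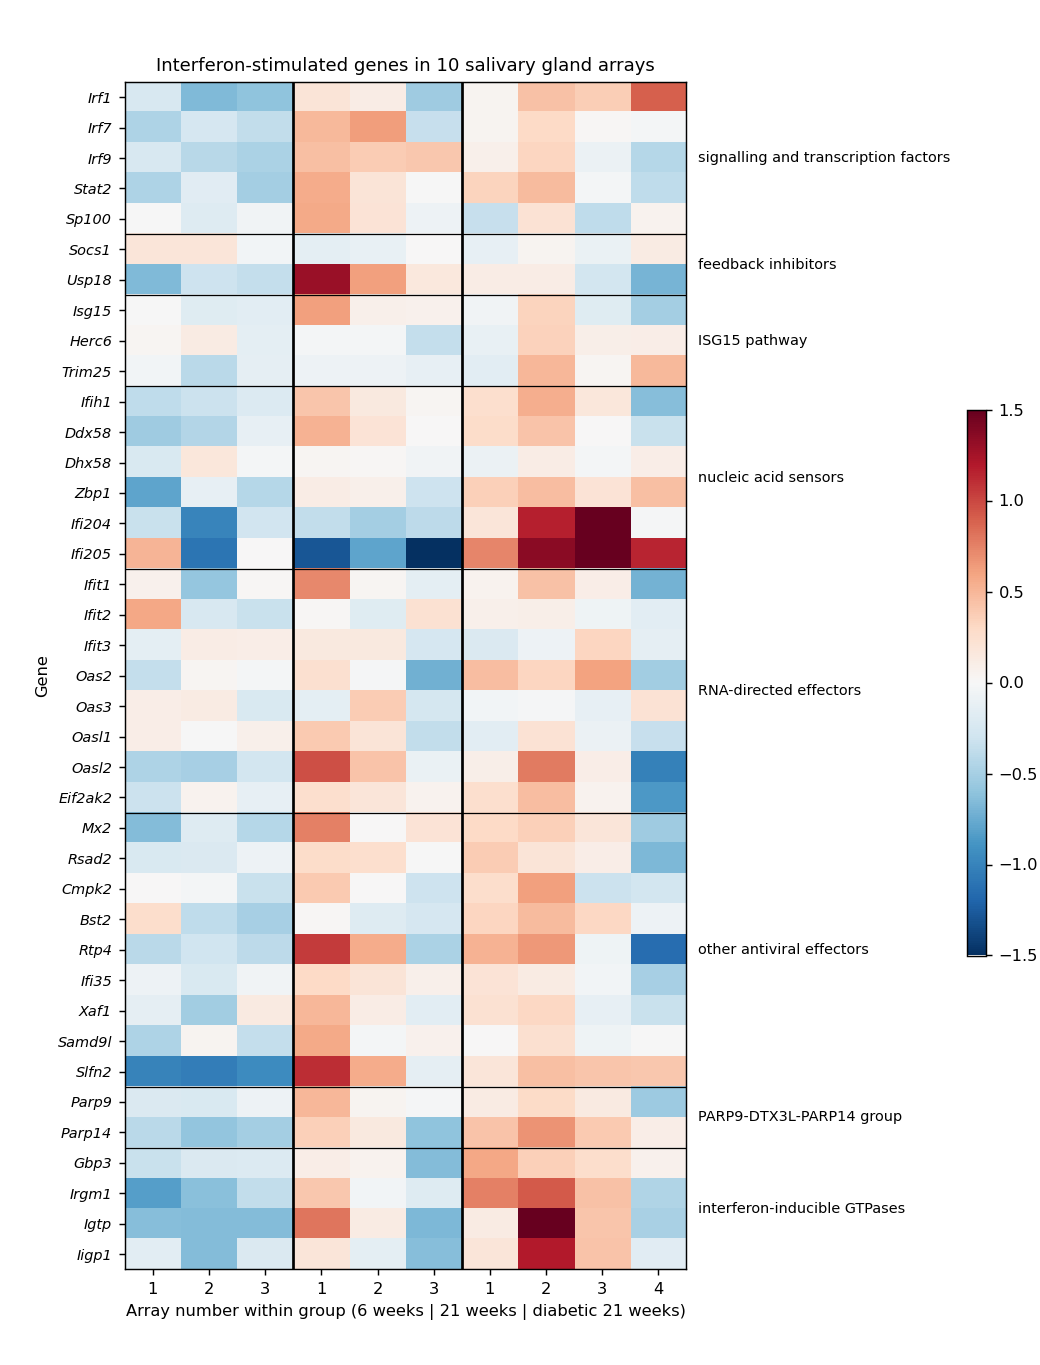
Level of each of the 39 tested genes (rows, by role) in the 10 arrays (columns, numbered within groups), as the log2 value minus the gene's own mean, from blue (lower) to red (higher). Nondiabetic 21-week array 1 is red for most genes, diabetic array 4 is blue for many, and the 6-week arrays are mostly blue.

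Among the signalling and transcription factors, 0 of 5 passed the test in any comparison, and 5 of 5 were higher at 21 than at 6 weeks without diabetes, against 38.2% of all genes. Irf9, the DNA-binding partner of Stat2, measured 5.64, 5.89, 5.47 and 5.14 in the diabetic arrays, 6.01, 5.94 and 5.96 at 21 weeks without diabetes and 5.32, 5.15 and 5.09 at 6 weeks. The nondiabetic 21-week arrays lay close together and above all others. The change was 0.79 ± 0.17 with age (adjusted p = 0.307) and -0.44 ± 0.16 with diabetes (adjusted p = 0.214). Both comparisons use the same nondiabetic 21-week arrays.

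Stat2, the other partner in that complex, measured 6.31, 6.44, 5.94 and 5.59 in the diabetic arrays, 6.53, 6.16 and 5.97 at 21 weeks without diabetes and 5.50, 5.79 and 5.46 at 6 weeks. All nondiabetic 21-week values lay above the 6-week values, and the diabetic values overlapped both groups. Its change was 0.63 ± 0.22 with age (adjusted p = 0.596) and -0.15 ± 0.20 with diabetes (adjusted p = 0.766). Irf7, the factor that amplifies interferon alpha production, measured 5.24, 5.49, 5.22 and 5.16 in the diabetic arrays, 5.68, 5.82 and 4.85 at 21 weeks without diabetes and 4.74, 4.95 and 4.83 at 6 weeks. Nondiabetic array 3 lay at the 6-week level while its companions were the highest of all. The change was 0.61 ± 0.21 with age (adjusted p = 0.603), and 0.44 ± 0.20 from the 6-week to the diabetic arrays (adjusted p = 0.328).

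Irf1, an early target of interferon gamma that activates antigen presentation genes, had its highest values in the diabetic arrays. It measured 5.24, 5.64, 5.56 and 6.09 in the diabetic arrays, 5.38, 5.30 and 4.66 at 21 weeks without diabetes and 4.96, 4.54 and 4.59 at 6 weeks. Diabetic array 4, low for most members, was the highest for Irf1. The change was 0.52 ± 0.22 with diabetes (adjusted p = 0.272) and 0.94 ± 0.22 from the 6-week to the diabetic arrays, which did not overlap (adjusted p = 0.0554). It passed the test without diabetic array 1 (adjusted p = 0.0424) or nondiabetic 21-week array 3 (0.0259). T cell markers were also highest in diabetic array 4, with a mean over 11 genes of 4.23, 4.19, 4.28 and 5.33 in the diabetic arrays, and their part in the Irf1 values was not tested. Sp100, a nuclear body protein, ranged from 7.04 to 7.99 over the 10 arrays and had changes of 0.31 with age and -0.34 with diabetes, neither past the test.

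The feedback inhibitors did not share a direction. Usp18, a protease that removes Isg15 from proteins and blocks signalling at Ifnar2, measured 5.04, 5.04, 4.66 and 4.24 in the diabetic arrays, 6.23, 5.55 and 5.10 at 21 weeks without diabetes and 4.28, 4.63 and 4.58 at 6 weeks. Every nondiabetic 21-week value lay above every value of the other groups. The change was 1.13 ± 0.27 with age (2.2-fold, adjusted p = 0.376) and -0.88 ± 0.25 with diabetes (adjusted p = 0.115). Socs1, which blocks the Jak kinases, measured 4.06 to 4.30 in the diabetic arrays, 4.03 to 4.18 at 21 weeks without diabetes and 4.14 to 4.36 at 6 weeks. These ranges overlap throughout, and the 95% interval of its diabetes change ran from -0.19 to 0.33.

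Isg15, a ubiquitin-like protein joined to other proteins, stood with Herc6, its ligase in mice, and Trim25, a ubiquitin ligase of the RNA-sensing pathway, and 0 of the 3 passed a test. Isg15 measured 4.11, 4.49, 3.98 and 3.65 in the diabetic arrays, 4.78, 4.24 and 4.23 at 21 weeks without diabetes and 4.16, 3.98 and 4.0 at 6 weeks. The nondiabetic 21-week values lay above the 6-week values, and the diabetic values spread over both. Its change was 0.37 ± 0.21 with age (adjusted p = 0.717) and -0.35 ± 0.19 with diabetes, with a 95% interval of -0.77 to 0.06 (adjusted p = 0.399). Herc6 ranged from 5.0 to 5.70 and Trim25 from 3.53 to 4.43 over the 10 arrays, and the diabetes changes were 0.24 and 0.31.

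The nucleic acid sensors held the 3 members that were higher in every diabetic array than in any nondiabetic array at either age, Ifi205, Ifi204 and Zbp1. They were the only members higher without overlap than the nondiabetic 21-week arrays, 7.69% of the 39 against 9.11% of all genes. Ifi205, a p200 family protein of the nucleus, measured 6.35, 6.96, 7.74 and 6.76 in the diabetic arrays, 4.33, 4.82 and 2.91 at 21 weeks without diabetes and 6.12, 4.51 and 5.62 at 6 weeks. Every diabetic value lay above every other value. With diabetes it rose 7.63-fold (2.93 ± 0.46, adjusted p = 0.0087). From 6 to 21 weeks without diabetes the change was -1.40 ± 0.49 (adjusted p = 0.603), and from the 6-week to the diabetic arrays 1.54 ± 0.46 (adjusted p = 0.13). Leaving out single arrays gave diabetes changes of 2.38 to 3.33, all past the test, the lowest without nondiabetic array 3.

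Markers of other cells were also higher in the diabetic arrays than at 21 weeks without diabetes. The mean of 8 of 8 fibroblast genes was 5.93, 6.20, 6.31 and 6.06 in the diabetic arrays, 5.49, 5.59 and 4.84 at 21 weeks without diabetes and 6.69, 5.24 and 6.02 at 6 weeks. Within each of the 3 groups the arrays had the same order for the fibroblast mean as for Ifi205. Of the 8 fibroblast genes 0 passed the test with diabetes, against 1.44% of all genes. The mean of 14 of 14 macrophage and monocyte genes ran from 5.03 to 5.61 in the diabetic arrays and from 4.39 to 4.75 in the nondiabetic 21-week arrays. In the 6-week arrays it ran from 4.47 to 4.86. Within the nondiabetic groups this mean also had the array order of Ifi205. In the diabetic group it differed only in that array 1 (5.04) lay above array 4 (5.03). Of the 14 genes 2 rose with diabetes, Cd68 and Mrc1, against 1.1% of all genes. The mean of 7 of 8 listed adipocyte genes ran from 4.70 to 5.15, from 3.62 to 4.11 and from 3.99 to 4.13 in the same order. Of the 7, 3 rose with diabetes, Car3, Fabp4 and Retn, against 1.1% of all genes. The part of these cells in the Ifi205 values was not tested.

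Ifi204, the mouse gene nearest in role to the human DNA sensor IFI16, measured 4.01, 4.99, 5.38 and 3.82 in the diabetic arrays, 3.46, 3.32 and 3.44 at 21 weeks without diabetes and 3.50, 2.84 and 3.55 at 6 weeks. All diabetic values were the higher ones, with arrays 2 and 3 well above arrays 1 and 4. The change was 1.14 ± 0.32 with diabetes (2.21-fold, adjusted p = 0.111) and 1.25 ± 0.32 from the 6-week to the diabetic arrays (adjusted p = 0.081, and 0.0342 without diabetic array 4). Genes of the p200 family are close copies in a cluster, so probes may read more than the gene they name.

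Zbp1, a sensor of left-handed nucleic acids that can start necroptosis, measured 4.20, 4.30, 4.05 and 4.28 in the diabetic arrays, 3.95, 3.91 and 3.53 at 21 weeks without diabetes and 3.04, 3.71 and 3.41 at 6 weeks. The diabetic values were the highest and lay close together. It rose 1.76-fold from the 6-week to the diabetic arrays (0.82 ± 0.17, adjusted p = 0.0328), and its change with diabetes alone was 0.41 ± 0.17 (adjusted p = 0.258). The first call was lost when any single diabetic array, 6-week array 1 or 6-week array 3 was left out, with adjusted p-values from 0.058 to 0.129. The sensors of viral RNA gave smaller differences with diabetes. Ddx58 (RIG-I) measured 5.76, 5.92, 5.50 and 5.16 in the diabetic arrays, 6.02, 5.70 and 5.49 at 21 weeks without diabetes and 4.95, 5.05 and 5.37 at 6 weeks, with diabetic and nondiabetic 21-week values intermixed. Its change was 0.61 ± 0.20 with age (adjusted p = 0.572) and -0.15 ± 0.19 with diabetes. Ifih1 (MDA5) had changes of 0.49 and -0.11, and Dhx58 (LGP2) of 0.03 and 0.03.

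**Figure D3:**
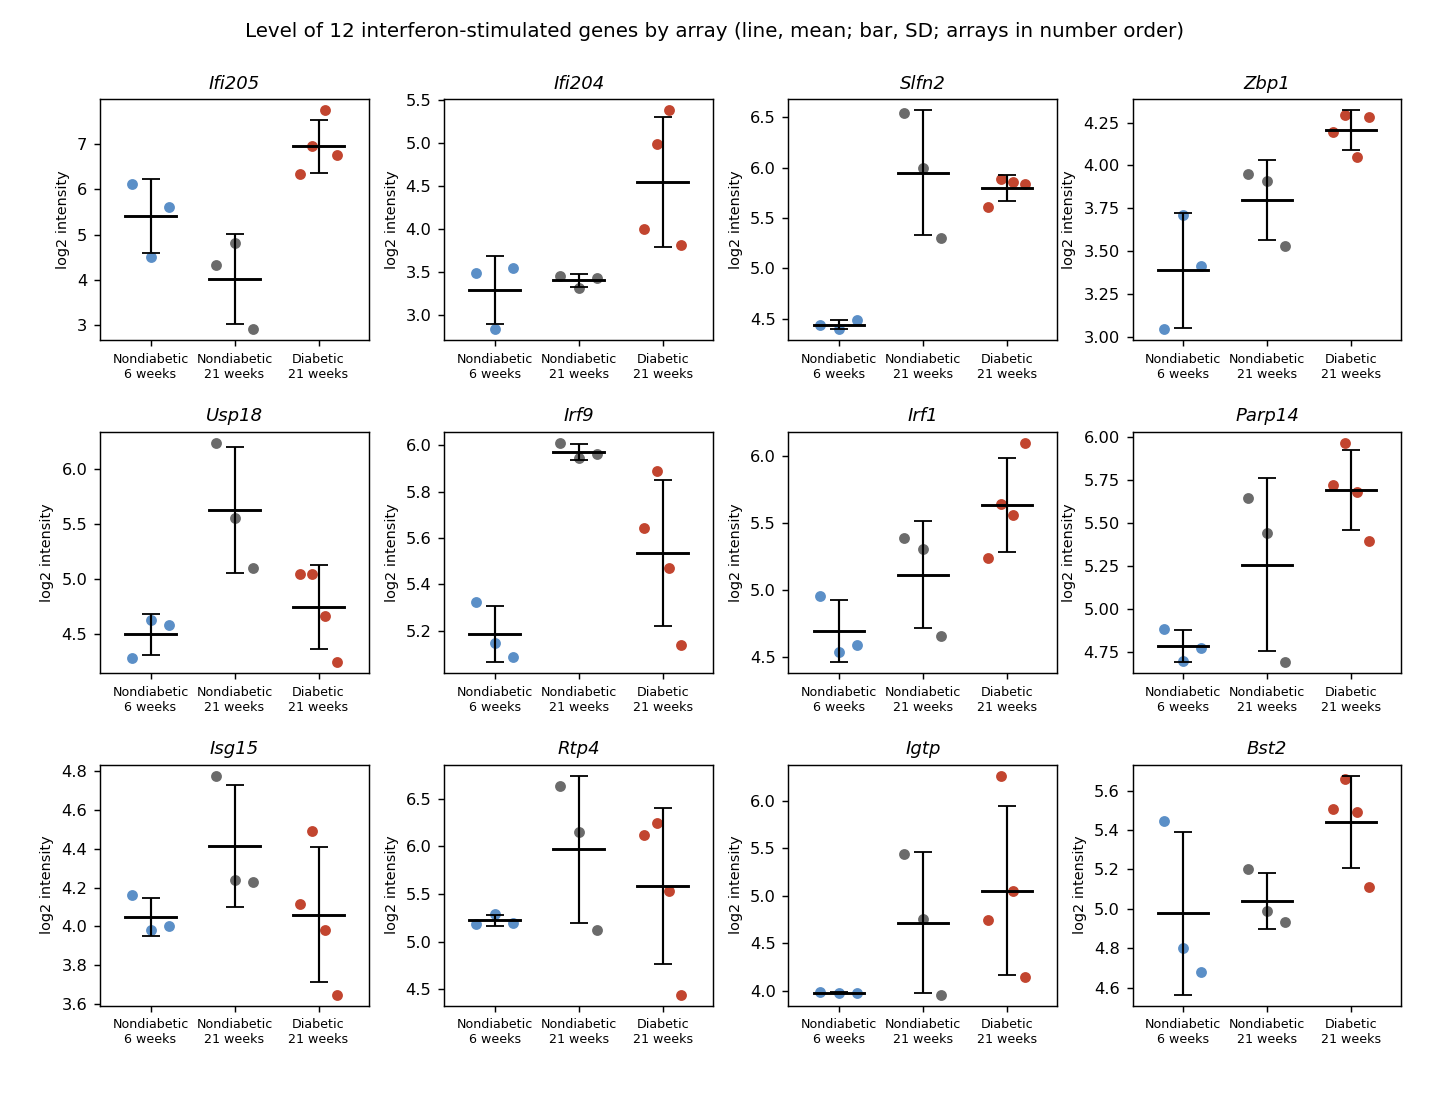
Log2 intensity of 12 of the genes in each array (points, in array order within a group), with the group mean (line) and SD (bar) for 3 nondiabetic 6-week, 3 nondiabetic 21-week and 4 diabetic arrays. Ifi205 in the diabetic arrays lies at 6.35 to 7.74, above all others, Slfn2 lies at 4.40 to 4.49 in the 6-week arrays, below all others, and Usp18 and Irf9 peak in the nondiabetic 21-week arrays.

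The RNA-directed effectors, which bind or cut viral RNA or stop translation, showed no change past the test. Of 8 tested, 0 passed in any comparison, with median changes of 0.02 with age and -0.11 with diabetes. Ifit1, which binds RNA caps that lack a host mark, measured 4.61, 5.0, 4.65 and 3.85 in the diabetic arrays, 5.28, 4.59 and 4.41 at 21 weeks without diabetes and 4.62, 3.97 and 4.57 at 6 weeks. All groups overlap. Its diabetes change was -0.23 ± 0.27, with a 95% interval from -0.82 to 0.36. Ifit3, of the same family, ranged from 4.10 to 4.68 over all arrays, with a diabetes change of -0.05 ± 0.16.

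Oasl2, a 2'-5' oligoadenylate synthetase-like protein, had the widest spread in that set. It measured 4.66, 5.36, 4.67 and 3.56 in the diabetic arrays, 5.54, 5.01 and 4.48 at 21 weeks without diabetes and 4.12, 4.08 and 4.30 at 6 weeks. The nondiabetic 21-week arrays lay above the 6-week arrays, and diabetic array 4 lay below all of them. Its change was 0.85 ± 0.36 with age (1.8-fold, adjusted p = 0.635). Oas2, Oas3, Oasl1, Ifit2 and Eif2ak2 had changes of -0.05 to 0.29 with age and -0.19 to 0.38 with diabetes, none past the test.

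Of the other antiviral effectors, 9 of 9 tested were higher at 21 than at 6 weeks without diabetes, against 38.2% of all genes. For 4 of them (44.4%) the groups did not overlap, against 13.8% of all genes. Of the 9, 7 were lower and 2 higher in the diabetic than in the nondiabetic arrays at 21 weeks (22.2% higher, against 56% of all genes). Slfn2, a Schlafen family protein that holds T cells and monocytes in a resting state, had the largest change with age in the list. It measured 5.61, 5.89, 5.85 and 5.84 in the diabetic arrays, 6.54, 6.00 and 5.31 at 21 weeks without diabetes and 4.44, 4.40 and 4.49 at 6 weeks. All 21-week values were higher than all 6-week values. From the 6-week to the diabetic arrays it rose 2.56-fold (1.36 ± 0.22, adjusted p = 0.0107), and with age alone the change was 1.51 ± 0.24 (2.84-fold, adjusted p = 0.0658). The first call was lost without 6-week array 2 or 3 (adjusted p = 0.0604 and 0.0611).

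Lymphocyte markers were also higher at 21 weeks. The mean of 11 of 14 listed T cell genes was 3.60 to 3.77 at 6 weeks, 3.93 to 4.60 at 21 weeks without diabetes and 4.19 to 5.33 with diabetes. Without diabetes 11 of 11 were higher at 21 than at 6 weeks, against 38.2% of all genes. The mean of 9 of 10 listed B cell genes was 3.28 to 3.35, 3.58 to 4.04 and 3.64 to 5.27 in the same order. The rank of the nondiabetic 21-week arrays was the same for T cells, B cells and Slfn2, and also for the mean over the 39 members. The other groups did not share a rank. At 6 weeks the order for Slfn2 was the reverse of that for T cells and B cells. Diabetic array 2 was the highest diabetic array for Slfn2 (5.89) and the lowest for T cells (4.19). The part of these cells in the members' levels was not tested. Diabetic array 4, with the highest T cell and B cell means, was the lowest diabetic array for 26 of the 39 members.

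Bst2, which tethers virus particles to the cell surface, measured 5.51, 5.66, 5.49 and 5.11 in the diabetic arrays, 5.20, 4.99 and 4.94 at 21 weeks without diabetes and 5.45, 4.80 and 4.68 at 6 weeks. Diabetic arrays 1 to 3 lay above all others, and array 4 did not. Its change with diabetes was 0.40 ± 0.19 (adjusted p = 0.326). Mx2, a GTPase related to Mx1, measured 3.70, 3.75, 3.58 and 2.87 in the diabetic arrays, 4.15, 3.40 and 3.60 at 21 weeks without diabetes and 2.74, 3.20 and 2.97 at 6 weeks. Only the nondiabetic groups were fully apart, with a change of 0.75 ± 0.25 (1.68-fold, adjusted p = 0.572). Rtp4, Rsad2, Cmpk2, Ifi35, Xaf1 and Samd9l had changes of 0.15 to 0.74 with age and -0.38 to 0.04 with diabetes, none past the test. Rtp4, a chaperone of taste and odour receptors that also acts against RNA viruses, ran from 4.45 in diabetic array 4 to 6.64 in nondiabetic 21-week array 1.

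Parp14 and Parp9 attach ADP-ribose to proteins, Parp9 together with Dtx3l. Parp14 measured 5.73, 5.97, 5.68 and 5.40 in the diabetic arrays, 5.65, 5.44 and 4.69 at 21 weeks without diabetes and 4.89, 4.70 and 4.78 at 6 weeks. The diabetic values lay above all 6-week values, and nondiabetic array 3 lay at the 6-week level. The change from the 6-week to the diabetic arrays was 0.90 ± 0.20 (1.87-fold, adjusted p = 0.051), and it passed the test without diabetic array 4 (0.0443) or nondiabetic 21-week array 1 (0.0402) or 3 (0.00933). Parp9 had changes of 0.35 with age and -0.17 with diabetes, neither past the test.

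The interferon-inducible GTPases attack the vacuoles of intracellular microbes and answer mainly to interferon gamma. By group mean, 4 of 4 tested were higher in the diabetic arrays than in either other group. Over all genes 56% were higher than at 21 weeks without diabetes and 46% higher than at 6 weeks. The diabetic and nondiabetic values at 21 weeks overlapped for all 4. Their median change was 0.42 with diabetes, 0.40 with age and 0.88 from the 6-week to the diabetic arrays, and 0 passed the test. Igtp (Irgm3) measured 4.75, 6.26, 5.05 and 4.15 in the diabetic arrays, 5.43, 4.75 and 3.96 at 21 weeks without diabetes and 3.99, 3.98 and 3.98 at 6 weeks. The 6-week values were almost equal, while the 21-week groups each spread over more than 1 log2 unit. Its change from the 6-week to the diabetic arrays was 1.07 ± 0.41 (adjusted p = 0.242). The Igtp change with diabetes was 0.34 ± 0.41, and it was -0.069 without diabetic array 2 and -0.043 without nondiabetic 21-week array 3.

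Irgm1, which guards the cell's own membranes against these GTPases, measured 5.25, 5.42, 4.94 and 4.05 in the diabetic arrays, 4.90, 4.46 and 4.31 at 21 weeks without diabetes and 3.67, 3.87 and 4.14 at 6 weeks. Diabetic array 4 lay among the 6-week values, and the other diabetic arrays lay above all nondiabetic ones. The change from the 6-week to the diabetic arrays was 1.02 ± 0.28 (2.03-fold, adjusted p = 0.0961), and without diabetic array 4 it was 1.31 (adjusted p = 0.00752). With diabetes at 21 weeks it was 0.35 ± 0.28 (adjusted p = 0.566). Gbp3, a guanylate-binding protein, measured 4.17, 3.95, 3.86 and 3.65 in the diabetic arrays, 3.70, 3.65 and 2.94 at 21 weeks without diabetes and 3.26, 3.37 and 3.38 at 6 weeks. The diabetic values lay above the 6-week values, with a change of 0.57 ± 0.18 between those groups (adjusted p = 0.161, and 0.0492 without nondiabetic 21-week array 3). Iigp1 (Irga6) had a diabetes change of 0.61 ± 0.28 (adjusted p = 0.315).

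**Figure D4:**
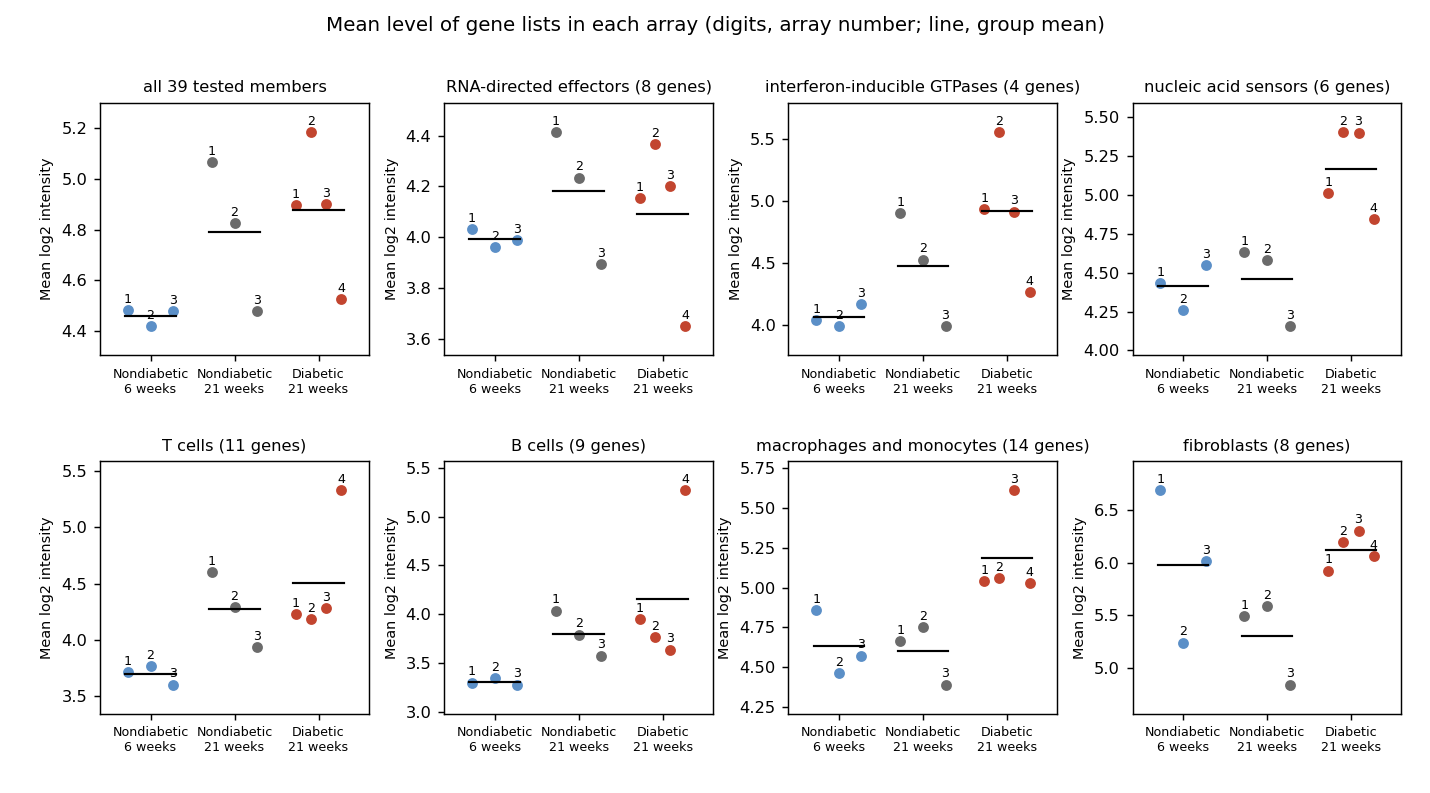
Mean log2 intensity of gene lists in each array (points, with the array number), with the group mean as a line. The member means lie at 4.42 to 4.48 at 6 weeks and range from 4.48 to 5.18 at 21 weeks, and diabetic array 4 is low for the RNA-directed effectors (3.65) but high for T cells (5.33) and B cells (5.27).

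Upstream of the list, 0 of 14 tested interferon genes passed a test in any comparison. Ifnb1, interferon beta, ranged from 2.70 to 3.16 over all arrays, near each array's 25th percentile of 2.58 to 2.70, so its level is close to background, and its diabetes change was -0.02 ± 0.14. Ifng is not among the genes tested here. Of 6 receptor chains 0 passed. Ifngr1, the binding chain for interferon gamma, measured 6.58, 6.43, 6.84 and 7.32 in the diabetic arrays, 6.08, 6.07 and 5.98 at 21 weeks without diabetes and 6.22, 5.99 and 6.17 at 6 weeks. All diabetic values were the higher ones, with a change of 0.75 ± 0.18 (1.68-fold, adjusted p = 0.065). Ifngr2, its partner chain, had -0.26 ± 0.13, and the type I chains Ifnar1 and Ifnar2 had 0.10 ± 0.12 and 0.10 ± 0.13.

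Of 11 signal transducers and their inhibitors 0 passed. With diabetes 10 were higher (90.9% against 56% of all genes) and 6 had no overlap (54.5% against 14.1% of all genes). Socs3, an inhibitor of cytokine signalling induced by Stat3, measured 5.32, 5.36, 5.90 and 6.54 in the diabetic arrays, 4.70, 4.87 and 4.43 at 21 weeks without diabetes and 5.09, 4.36 and 4.80 at 6 weeks. The diabetic values were the highest, with a change of 1.12 ± 0.27 (2.17-fold, adjusted p = 0.065). The kinases Jak2 and Jak1 had diabetes changes of 0.64 ± 0.16 (adjusted p = 0.0749) and 0.47 ± 0.13 (adjusted p = 0.111). The inhibitors Ptpn2, a phosphatase, and Pias1 had 0.57 ± 0.15 (adjusted p = 0.0772) and 0.49 ± 0.13 (adjusted p = 0.0958).

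Of 11 genes that lead to interferon production 0 passed. Myd88, the adaptor of most Toll-like receptors, measured 5.57, 5.65, 5.43 and 5.71 in the diabetic arrays, 5.12, 4.96 and 4.25 at 21 weeks without diabetes and 5.37, 5.48 and 5.14 at 6 weeks. The nondiabetic 21-week arrays were the lowest group, and the change with diabetes was 0.81 ± 0.19 (adjusted p = 0.053, and 0.0398 without nondiabetic 21-week array 1). Of 5 other p200 genes 0 passed. Mndal measured 3.81, 3.98, 4.22 and 4.32 in the diabetic arrays, 3.71, 3.63 and 3.24 at 21 weeks without diabetes and 3.77, 3.41 and 3.36 at 6 weeks, again highest with diabetes (0.55 ± 0.17, adjusted p = 0.137). Aim2, the DNA sensor of an inflammasome, had 0.75 ± 0.23 with age (adjusted p = 0.572) and 0.09 ± 0.22 with diabetes.

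A further set of 39 interferon-inducible genes outside the 44 was also mostly higher with age, where 32 were higher (82.1% against 38.2% of all genes, median 0.25) and 0 passed. With diabetes 27 were higher (69.2% against 56% of all genes, median 0.12), where 17 of the 39 members were, and 1 rose (2.56% against 1.1% of all genes). That gene was Ifitm2, which blocks virus entry, with 5.0, 5.07, 5.24 and 4.91 in the diabetic arrays, 4.22, 3.91 and 4.49 at 21 weeks without diabetes and 4.99, 4.99 and 5.39 at 6 weeks. The nondiabetic 21-week arrays were low and the other groups alike, so the rise of 1.8-fold (0.85 ± 0.16, adjusted p = 0.023) stood beside a change of -0.07 ± 0.16 from the 6-week to the diabetic arrays. The call was lost without diabetic array 2 or 3 or nondiabetic 21-week array 1 or 2 (adjusted p from 0.0595 to 0.0842).

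From the 6-week to the diabetic arrays 3 of this set rose and 1 fell, against 0.903% and 0.542% of all genes. Psmb8, a catalytic subunit of the immunoproteasome, measured 5.95, 6.64, 5.93 and 6.36 in the diabetic arrays, 6.55, 6.21 and 6.20 at 21 weeks without diabetes and 5.34, 5.41 and 5.27 at 6 weeks. All 21-week arrays lay above all 6-week arrays, and it rose 1.84-fold (0.88 ± 0.17, adjusted p = 0.0311). Epsti1 rose by 0.70 ± 0.14 (adjusted p = 0.0327), and Trim30a by 0.70 ± 0.15 (adjusted p = 0.0461) with 6-week values of 1.99 to 2.29, under the 25th percentile of those arrays. Ifi30, a lysosomal thiol reductase for antigen processing, fell by 0.93 ± 0.15 (adjusted p = 0.0119), from 7.88 to 7.97 in the 6-week arrays to 6.59 to 7.20 in the diabetic arrays. These calls rest on few arrays. Ifi30 was lost without any single 6-week array (adjusted p from 0.0532 to 0.072), Psmb8 without those or diabetic array 2 or 4 (0.0589 to 0.13), and Epsti1 without those or diabetic array 2, 3 or 4 (0.0579 to 0.144). Trim30a was lost in 8 of the 10 such fits (0.0569 to 0.187), and kept without diabetic array 1 or nondiabetic 21-week array 3. It passed the filter on low values through 21-week arrays alone. Its call was also lost with no such filter (adjusted p = 0.0593) and with a fit of only the groups compared (0.0605). With the replicate number as a block, Trim30a (0.146), Psmb8 (0.0779) and Epsti1 (0.0649) were all lost. Cxcl9, a T cell chemokine induced by interferon gamma, measured 4.73, 5.74, 4.46 and 3.95 in the diabetic arrays, 4.65, 4.66 and 5.01 at 21 weeks without diabetes and 3.30, 3.72 and 3.55 at 6 weeks. Every 21-week value lay above every 6-week value, with a change of 1.26 ± 0.33 with age (2.39-fold, adjusted p = 0.481).

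Markers of plasmacytoid dendritic cells, the main makers of interferon alpha, were not higher in the diabetic arrays. The mean of 7 of 8 listed genes was 5.31 to 5.36 in the diabetic arrays, 5.42 to 5.49 at 21 weeks without diabetes and 5.35 to 5.46 at 6 weeks, and 0 of 7 passed a test. That list holds Klk1, which the gland itself makes in large amounts. Siglech, the defining surface marker, ranged from 3.11 to 3.86 and was not higher in any diabetic array than in the highest nondiabetic one. Natural killer cell markers (8 of 8) averaged 3.14 to 3.65, with 0 past a test.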

How the data were processed

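The authors deposited log2 intensities per probe set, which the submitters' processing notes credit to RMA and Affymetrix Power Tools, with versions and settings not given in the sources used here. RNA was taken with Trizol and hybridised as biotin-labelled sense cDNA, per the labels' protocols. Of 41345 probe sets, the gene table gave 1 symbol for 23521, several for 1814 and none for 16010. A probe set was kept if at least 3 arrays had it above their own 25th percentile, and the brightest stood for each gene. Of the members, 40 matched RefSeq by gene identifier.

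All 10 arrays entered 1 limma 3.58.1 fit (R 4.3.3) with a mean per group, lmFit and default eBayes (7 residual and 5.61 prior degrees of freedom), two-sided, with Benjamini-Hochberg adjustment and a threshold of 0.05. The number of arrays limits the precision. Tested on simulated data over 18826 genes, the fit recovered a log2 change of 1 for 79% (diabetes), 75% (age) and 86% (both together) of changed genes. The simulation gave each gene independent normal noise and planted changes in 200 genes. It held no outlying array and no shared variation between genes, so these shares do not give the power of the real comparisons. In the real age comparison 5 genes passed, and Slfn2 with a change of 1.51 did not.

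The members, the pathway and cell type lists, their roles and the alternatives were chosen with earlier results of these data known. Named with values are members past the threshold, the 6 with the smallest p per comparison, 14 fixed members, and of each pathway list the genes with the smallest p; not all of these are printed, and Oasl2, Rtp4 and the members given by a range were named after their values were seen. Motifs and promoters come from the RefSeq promoter table. Genes on shared probe sets were left out of the comparisons.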

Additional observations from a re-analysis of the deposited data

Results flagged for a closer look

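A probe set outside the comparisons, because it names both Ifi211 and Ifi204, was higher in the diabetic than in the nondiabetic arrays at 21 weeks by 1.43. It measured 5.31, 5.80, 6.38 and 5.54 in the diabetic arrays, 4.34, 4.68 and 3.96 at 21 weeks without diabetes and 4.87, 3.15 and 3.93 at 6 weeks. Every diabetic value lay above every other value, and diabetic array 3 was the highest, as for Ifi204 and Ifi205 on their own probe sets. These p200 genes are close copies, and how far the probe sets read each other's RNA was not tested. Of the 39 members, 0 had a diabetic array that stood apart from the other 3 by Dixon's criterion at 95%.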

How the results depend on the processing

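The groups held 3 or 4 arrays, 2 of the 10 stood apart, and genes near background are measured poorly. The call of Ifi205 with diabetes held under every alternative run. The count of members that rose with diabetes was 2 with array weights, with 1 that fell, and 1 to 2 with single arrays left out. With age it was 1 with a variance trend, array weights, quantile normalization or median centring, 0 to 1 with single arrays left out, and 3 without both nondiabetic 21-week array 3 and diabetic array 4, an alternative chosen after seeing the data. From the 6-week to the diabetic arrays it was 4 with a filter at the array median, a fit of only the groups compared, a variance trend or median centring, 8 with array weights or without both of those arrays, 0 at an adjusted p under 0.01, 1 with a change of at least 2-fold, and 0 to 5 with single arrays left out. With the replicate number as a block that count was 4, where Zbp1 was lost (adjusted p = 0.0666). The number of all genes that rose moved with the same settings. From the 6-week to the diabetic arrays it was 170 in the main fit, 423 with array weights and 351 without both of those arrays. It was 155 with the replicate block and 31 to 244 with single arrays left out. With age it was 1 in the main fit, 8 with array weights and 28 without both arrays. With diabetes it was 207 in the main fit, 268 with array weights and 59 to 222 with single arrays left out. Same-numbered arrays of different groups did not deviate together more than others did. Their correlations were -0.12 to 0.07 over 9 pairs, against -0.11 to 0.15 over 24 pairs of other numbers. With 3 or 4 arrays a group these values cannot exclude a pairing, and the labels name none. Number 4 occurs only among the diabetic arrays, so the block takes its diabetic estimates from the other 3. The longer ISRE consensus was in 8 promoters against 17 with the core. Of 83 gene results, 42 kept their direction and side of the threshold under all alternatives, and 13 changed sign under at least 1. Isg15 from the 6-week to the diabetic arrays was -0.0025 with quantile normalization, and Stat2 with diabetes was 0.012 with the replicate block. With single arrays left out, the age changes ran from -0.083 to 0.30 (Bst2), -0.044 to 0.33 (Gbp3), -0.12 to 0.24 (Ifi204) and -0.082 to 0.13 (Ifit3). The changes from 6-week to diabetic arrays ran from -0.069 to 0.36 (Ifit1), -0.16 to 0.018 (Ifit3) and -0.13 to 0.15 (Isg15). The diabetes changes ran from -0.41 to 0.026 (Ifit1), -0.18 to 0.020 (Ifit3), -0.069 to 0.69 (Igtp), -0.47 to 0.014 (Irf7), -0.47 to 0.15 (Slfn2) and -0.27 to 0.012 (Stat2). The causes were not tested.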

Other observations

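Members on shared probe sets gave values that belong in no comparison. The probe set of Gbp2 and Gbp2b, guanylate-binding proteins induced by interferon gamma, measured 5.42, 6.66, 5.44 and 4.70 in the diabetic arrays, 5.33, 5.40 and 5.08 at 21 weeks without diabetes and 4.62, 4.78 and 4.63 at 6 weeks. Diabetic array 2 was the highest and array 4 the lowest diabetic array, as for Igtp and Irgm1. The probe set of Dtx3l and Parp9 measured 5.08, 5.62, 5.03 and 5.09 in the diabetic arrays, 5.35, 5.36 and 4.29 at 21 weeks without diabetes and 4.87, 5.07 and 4.71 at 6 weeks, with all groups overlapping. The probe set of Oas1a and Oas1g ranged from 2.38 to 3.24, close to background.

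Ifi35 had a second probe set, at 3.79 to 4.36. Between diabetic and nondiabetic arrays at 21 weeks it differed by 0.07, while the Ifi35 probe set used had -0.24. Sp100 had 3 more probe sets that name it alone. Of these, the one at 6.90 to 7.53 and a dimmer one differed by -0.31 each between diabetic and nondiabetic arrays at 21 weeks.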
